A study of Homo sapiens with 4 samples.

Results

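The genes described here encode the enzymes that add methyl groups to histones and those that remove them. They were taken as all genes of the array whose symbol belongs to the KMT, SETD, NSD, SUV39H, EHMT, EZH, PRDM, SMYD, PRMT and KDM families or is CARM1, with the probe set of highest mean over the arrays standing for each gene. Of 14884 named genes, 65 met this rule, and 57 of the 65 were bright enough to be tested. The rule used names alone and no measured difference, but the members and the lists below were chosen with earlier results of these data known. Transcript levels came from U2OS, a human osteosarcoma cell line, after transfection with siRNA against BRPF3 or with a negative control siRNA, each at 50 nM for 48 hours. Each of these groups held 2 arrays, described in the labels as biological replicates.

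BRPF3 is a scaffold of acetyltransferase complexes built on KAT7. The annotation used here names no probe set for BRPF3, so its depletion was not checked on these arrays. Nothing in the labels states that the replicates came from separate cultures, so the p-values reflect only array-to-array spread, which may be technical, and the precision is limited by the number of arrays. Values are log2 signals per probe set as deposited by the authors, made with the RMA method, which includes a normalization between arrays. All differences are BRPF3 siRNA minus control siRNA. A gene was tested where its mean over the arrays reached 4.59, the median of all probe sets. The osteoblast transcription factor RUNX2, at 6.32 and 6.31 on the BRPF3 siRNA arrays and 6.56 and 6.39 on the control siRNA arrays, reached this bound, as did SP7, while IBSP was dimmer and the other listed bone markers were not analysed here. Of 17 listed markers of other cell types 7 were tested and 2 fell, LAPTM5 (leukocytes, a difference of -0.88) and KRT18 (epithelia, -0.49), while EPCAM, KRT8, KRT19, CLDN5 and PLIN1 did not pass, and CD14, PECAM1 and VWF were too dim to be tested. The summed signal of the 7 on the linear scale was 1525 and 1454 on the BRPF3 siRNA arrays and 1904 and 1830 on the control siRNA arrays. KRT18, at 9.98 and 9.86 after BRPF3 siRNA and 10.43 and 10.39 after control siRNA, made up most of this sum. The number of its probe set falls among those of genes on chromosome 3, whereas KRT18 lies on chromosome 12. Which transcript this probe set measures is therefore uncertain. Of the 7 differences 3 were above 0, that of EPCAM (0.27) among them, and 4 below. The changed share of the 7 was 28.6%, against 15.8% of all tested genes. The part of these markers in the results below was not tested. In RNA from a whole culture, fewer cells of a kind and less RNA per cell cannot be told apart.

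As background, histone methyltransferases transfer methyl groups from S-adenosylmethionine to lysine or arginine side chains, and most of those acting on lysine carry a SET domain. What a methyl mark stands for depends on the residue: H3K4 and H3K36 methylation accompany active promoters and transcribed gene bodies, whereas H3K9 and H3K27 methylation accompany silent chromatin. Demethylases remove the marks by different chemistries, flavin-dependent oxidation in KDM1A and KDM1B and iron- and oxoglutarate-dependent hydroxylation by the JmjC domain in the other KDM proteins.

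After BRPF3 siRNA 6 of the 57 tested members changed, 2 of them higher and 4 lower (limma, Benjamini-Hochberg adjusted p under 0.05 over all 10696 tested genes). PRDM16 and KDM7A rose, and the arginine methyltransferases PRMT1, PRMT5 and PRMT6 and the lysine demethylase KDM1A fell. The share of members that changed was 10.5%, against 15.8% of all tested genes. The share that rose was 3.51%, against 6.32% of all genes, and the share that fell was 7.02%, against 9.44% of all genes. Each of these shares lay below that of all genes, and no test of the enzymes as a group was made. Their median difference was -0.03, the same to this precision as the median over all tested genes (-0.03).

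The 3 arginine methyltransferases that fell are shown with the sequence around their start sites, from 250 bases before to 50 bases after the start, as theirs is the only role with more than 1 member changed in the same direction. The sequences are those of RefSeq for the build GRCh38.p14, and 5 of the 6 changed members had an entry. Capitals mark matches, on either strand, to the CCAAT box (CCAAT) and the GC box (GGGCGG). PRMT5 lies at chr14:22929327-22929626 on the minus strand, PRMT1 at chr19:49677021-49677320 on the plus strand and PRMT6 at chr1:107056424-107056723 on the plus strand.
PRMT5: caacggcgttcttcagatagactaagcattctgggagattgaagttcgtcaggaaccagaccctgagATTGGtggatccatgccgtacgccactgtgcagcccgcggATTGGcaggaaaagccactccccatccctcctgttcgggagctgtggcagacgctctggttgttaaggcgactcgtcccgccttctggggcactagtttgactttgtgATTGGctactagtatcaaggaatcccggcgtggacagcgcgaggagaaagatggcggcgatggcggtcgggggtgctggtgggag
PRMT1: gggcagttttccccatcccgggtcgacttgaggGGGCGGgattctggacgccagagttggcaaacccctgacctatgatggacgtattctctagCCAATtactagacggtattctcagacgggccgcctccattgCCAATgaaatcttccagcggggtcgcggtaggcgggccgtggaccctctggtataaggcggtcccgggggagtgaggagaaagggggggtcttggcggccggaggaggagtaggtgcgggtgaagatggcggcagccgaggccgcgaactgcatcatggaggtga
PRMT6: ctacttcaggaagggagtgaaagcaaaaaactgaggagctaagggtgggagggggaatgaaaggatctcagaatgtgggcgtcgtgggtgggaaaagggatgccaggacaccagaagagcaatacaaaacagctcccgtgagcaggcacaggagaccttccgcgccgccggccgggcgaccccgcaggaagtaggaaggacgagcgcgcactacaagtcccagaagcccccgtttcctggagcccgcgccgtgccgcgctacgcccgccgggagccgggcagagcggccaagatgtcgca

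The window of PRMT5 held 3 CCAAT boxes and 0 GC boxes, that of PRMT1 held 2 CCAAT boxes and 1 GC box, and that of PRMT6 held 0 matches to either. A CCAAT box was found in 36.4% of the windows of the 55 tested members with an entry and in 36.1% of the windows of all tested genes with an entry. A GC box was found in 78.2% of member windows, against 68.5% of those of all tested genes. An E-box (CACGTG, which reads the same on both strands) was present in 10 of the 55 member windows (18.2%), against 9.85% over all tested genes, and in 0 of the 5 windows of changed members. A TATA box (TATAAA) was in 0 of the 55, against 5.77% of all tested genes. The ETS core CCGGAAG was in 16.4% of member windows, against 17.7%. The number of CpG dinucleotides was 20 in the PRMT5 window, 22 in that of PRMT1 and 25 in that of PRMT6, while the median was 30 over tested members and 26 over all tested genes. Matches of different motifs did not overlap in the windows shown. These matches describe the letters of the windows and say nothing of binding.

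PRMT5, the main enzyme of symmetric arginine dimethylation, acts on histones and on spliceosomal proteins. Its signal was 7.52 and 7.53 on the BRPF3 siRNA arrays, against 7.92 and 7.93 on the control siRNA arrays, a difference of -0.40 ± 0.08 or 1.32-fold lower (adjusted p = 0.0272 in limma's moderated test). Here and below ± gives limma's moderated SE, with n = 2 arrays per group. The arrays of each group lay within 0.01 of each other and the groups were far apart. PRMT1, the enzyme responsible for most asymmetric arginine dimethylation in human cells, had 6.13 and 6.07 after BRPF3 siRNA, against 6.50 and 6.45 after control siRNA, a difference of -0.38 ± 0.08 (1.30-fold lower, adjusted p = 0.0332, limma). PRMT6, which methylates H3R2 and thereby opposes H3K4 methylation, had 7.48 and 7.50 after BRPF3 siRNA, against 7.80 and 7.83 after control siRNA, a difference of -0.33 ± 0.08 (1.25-fold lower, adjusted p = 0.0424, limma). For all 3 genes both BRPF3 siRNA arrays were below both control arrays. A gap between the groups, in either direction, was found for 63.2% of all tested genes.

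The other 5 tested arginine methyltransferases did not pass the test. The changed share of this role was 37.5%, against 15.8% of all tested genes, a difference that was not tested over so few genes. CARM1, a coactivator enzyme that methylates histone H3 at arginines, was at 10.01 and 10.03 after BRPF3 siRNA, against 10.18 and 10.13 after control siRNA (-0.13 ± 0.08, adjusted p = 0.279, limma). PRMT9, which methylates a splicing factor, was the 1 member of the role with a positive difference (0.13 ± 0.13), and its arrays overlapped between the groups. PRMT2, PRMT3 and PRMT7 differed by -0.11, -0.05 and -0.05. The median over the 8 tested arginine methyltransferases was -0.12, with 7 differences below 0. Over all 10696 tested genes the median was -0.03, with 5895 differences below 0. PRMT8 was too dim to be tested.

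**Figure D1:**
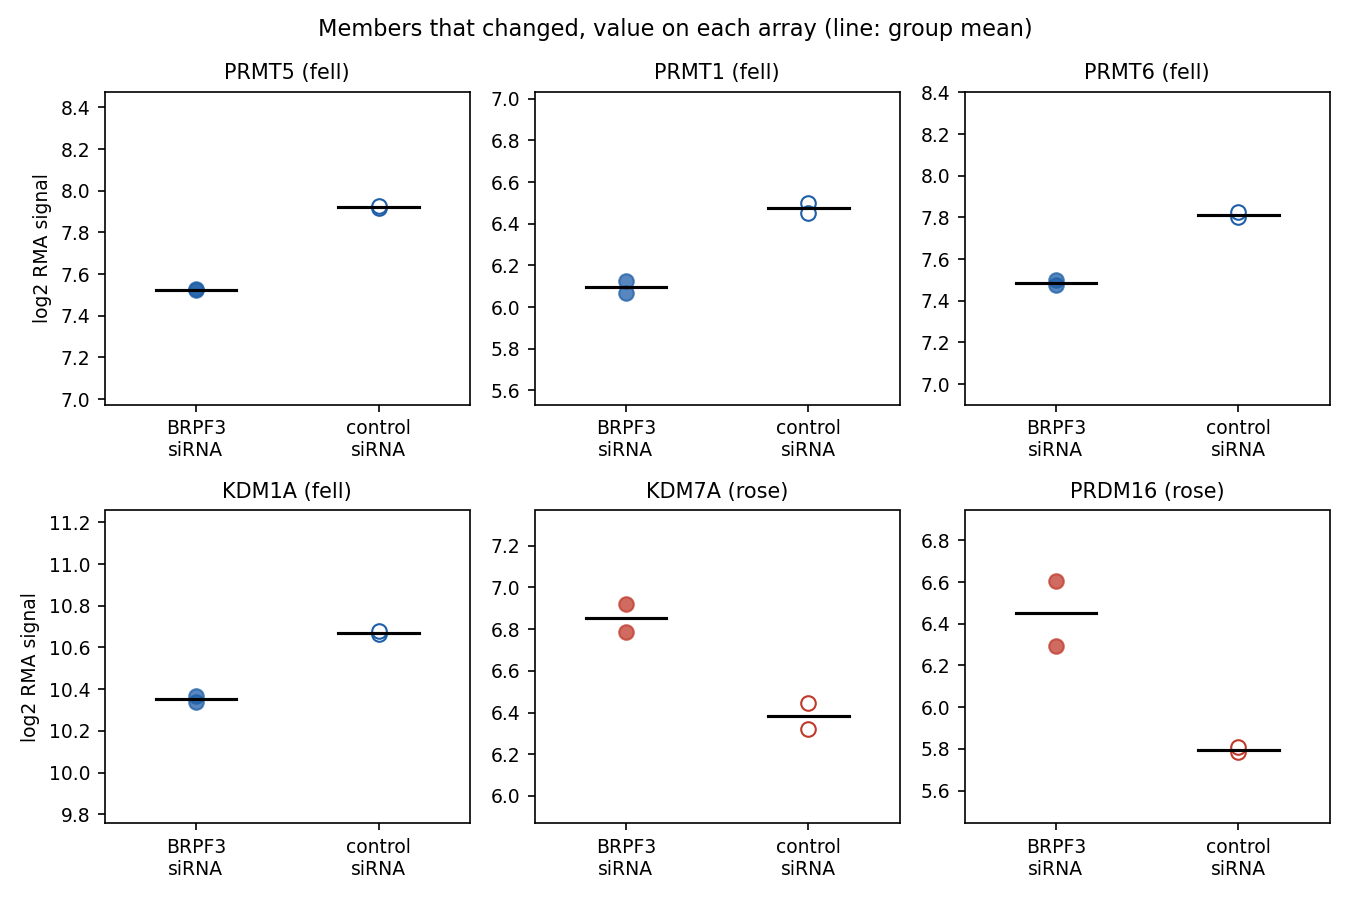
Log2 RMA signal (vertical axis, every panel spanning 1.5 log2 units) of the 6 members that changed, with BRPF3 siRNA arrays as filled and control siRNA arrays as open points and lines at group means. PRMT5, PRMT1, PRMT6 and KDM1A lie lower and KDM7A and PRDM16 higher after BRPF3 siRNA, and in no panel do the groups overlap. The same lack of overlap was found for 63.2% of all tested genes.

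Among the 16 tested lysine demethylases 1 rose, 1 fell and 14 did not pass, a changed share of 12.5%, against 15.8% of all tested genes. KDM1A, also called LSD1, removes mono- and dimethylation from H3K4 within the CoREST complex. Its signal was 10.34 and 10.37 on the BRPF3 siRNA arrays, against 10.66 and 10.68 on the control arrays, a difference of -0.32 ± 0.08 (1.25-fold lower, adjusted p = 0.0445, limma). The arrays of each group lay close together, and both BRPF3 siRNA arrays were below both control arrays. A gap in either direction was found for 63.2% of all tested genes. Its paralog KDM1B, the other flavin-dependent enzyme, differed by -0.08 ± 0.08 (adjusted p = 0.501, limma). KDM7A, a JmjC demethylase of dimethylated H3K9 and H3K27, had 6.79 and 6.92 after BRPF3 siRNA, against 6.45 and 6.32 after control siRNA, a difference of 0.47 ± 0.09 (1.38-fold higher, adjusted p = 0.0295, limma).

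Both BRPF3 siRNA arrays of KDM7A lay above both control arrays, with a similar spread in the groups. KDM6A, an H3K27 demethylase of the KMT2C and KMT2D complexes, was at 7.47 and 7.43 after BRPF3 siRNA, against 7.08 and 7.25 after control siRNA (0.28 ± 0.09, adjusted p = 0.0927, limma), and its paralog KDM6B differed by -0.02 ± 0.09 (adjusted p = 0.883). KDM3A, a demethylase of H3K9 that is itself induced by low oxygen, was at 7.35 and 7.32 after BRPF3 siRNA, against 7.57 and 7.62 after control siRNA (-0.26 ± 0.08, adjusted p = 0.0744, limma). Neither KDM6A nor KDM3A passed. In both the arrays of the groups did not overlap, as was the case for 63.2% of all tested genes. The H3K36 demethylases KDM2A (0.04 ± 0.08) and KDM2B (-0.08 ± 0.08), the H3K9 and H3K36 demethylase KDM4A (-0.15 ± 0.08) and the H3K4 demethylases KDM5A (0.04 ± 0.09), KDM5B (-0.19 ± 0.10) and KDM5C (-0.02 ± 0.11) did not pass either. Over the 16 demethylases 7 differences were above 0 and 9 below, with a median of -0.02.

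PRDM16 had the largest difference of the tested members. It is a zinc finger protein with a PR domain, a relative of the SET domain, and is known for its part in the identity of brown fat cells and of blood stem cells. Its signal was 6.60 and 6.30 on the BRPF3 siRNA arrays, against 5.78 and 5.81 on the control siRNA arrays, a difference of 0.65 ± 0.12 (1.57-fold higher, adjusted p = 0.0249, limma). The control arrays lay within 0.03 of each other, while the BRPF3 siRNA arrays differed by 0.31. PRDM8, a PR domain repressor known from neural and retinal development in mice, was at 5.05 and 4.67 after BRPF3 siRNA, against 5.35 and 5.37 after control siRNA (-0.50 ± 0.14, adjusted p = 0.0607, limma), with one BRPF3 siRNA array much nearer to the controls than the other. PRDM10 differed by -0.38 ± 0.12 (adjusted p = 0.0848). Of the 6 tested members in this role 1 rose and 5 did not pass, a changed share of 16.7%, against 15.8% of all tested genes. The differences of PRDM4, PRDM12 and PRDM15 lay between 0.01 and 0.10.

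In the roles that write lysine marks on histones H3 and H4, 0 of 20 tested members passed limma's test, against 15.8% of all tested genes. An unadjusted p under 0.05 was found for 1 of them, EHMT2 (5%), against 34.6% of all tested genes. No test of these 20 as a group was made. For the H3K27 mark of Polycomb silencing, EZH2 was at 8.07 and 7.95 after BRPF3 siRNA, against 8.07 and 8.01 after control siRNA, and its paralog EZH1 was at 7.84 and 7.81 after BRPF3 siRNA, against 7.94 and 7.79 after control siRNA. The arrays of both genes overlapped between the groups. The 95% interval of the difference, which is per gene and not adjusted for the number of genes, ran from -0.24 to 0.18 for EZH2 and from -0.25 to 0.18 for EZH1. For the H3K9 mark of heterochromatin, SUV39H1 (0.08 ± 0.09) and SUV39H2 (-0.0022 ± 0.11) had arrays that overlapped between the groups. EHMT2, known as G9a, which forms a heterodimer with EHMT1 and places dimethylation on H3K9, was at 8.84 and 8.72 after BRPF3 siRNA, against 9.12 and 9.03 after control siRNA (-0.30 ± 0.09, adjusted p = 0.0718, limma), while EHMT1 differed by -0.03 ± 0.08.

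Among the H3K4 methyltransferases SETD1A, catalytic subunit of a COMPASS complex, differed by -0.08 ± 0.08 and SETD7, an enzyme with many non-histone substrates, by 0.16 ± 0.08. KMT2D, the main enhancer H3K4 monomethyltransferase together with KMT2C, was at 7.92 and 8.09 after BRPF3 siRNA, against 7.82 and 8.33 after control siRNA, and KMT2C was at 7.84 and 8.13 after BRPF3 siRNA, against 7.68 and 8.13 after control siRNA. For both genes replicate 2 exceeded replicate 1 in each group, and the spread within groups was larger than the difference between them. PRDM9, which shares nearly all of its sequence with PRDM7, is uncertain for that reason and lay close to the brightness bound. The H3K36 enzymes NSD1 (0.18 ± 0.09, adjusted p = 0.217, limma), NSD2 (0.09 ± 0.09), NSD3 (0.06 ± 0.11) and SETD2 (-0.11 ± 0.09), the last of which travels with RNA polymerase II and places the trimethylated form, did not pass. Neither did the H4K20 enzymes KMT5A (0.11 ± 0.12), which acts in the cell cycle, KMT5B (-0.08 ± 0.08) and KMT5C (0.16 ± 0.09). KMT2A, SETD1B, SETDB1 and DOT1L were not analysed here.

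All 4 tested SMYD proteins had a difference below 0, with a median of -0.21, and 0 passed limma's test, against 15.8% of all tested genes. Over all 10696 tested genes 5895 differences were below 0, with a median of -0.03. An unadjusted p under 0.05 was found for 2 of them (50%), against 34.6% of all tested genes. SMYD2, which methylates p53 and other non-histone proteins as well as H3, was at 9.24 and 9.31 after BRPF3 siRNA, against 9.53 and 9.74 after control siRNA (-0.36 ± 0.10, adjusted p = 0.0640, limma). Its groups did not overlap, as was the case for 63.2% of all tested genes. SMYD4 differed by -0.01 ± 0.10 with overlapping arrays. SETD3, the histidine methyltransferase of actin, differed by -0.10 ± 0.08 and SETD6, which methylates the NF-kappaB subunit RELA, by 0.13 ± 0.10.

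**Figure D2:**
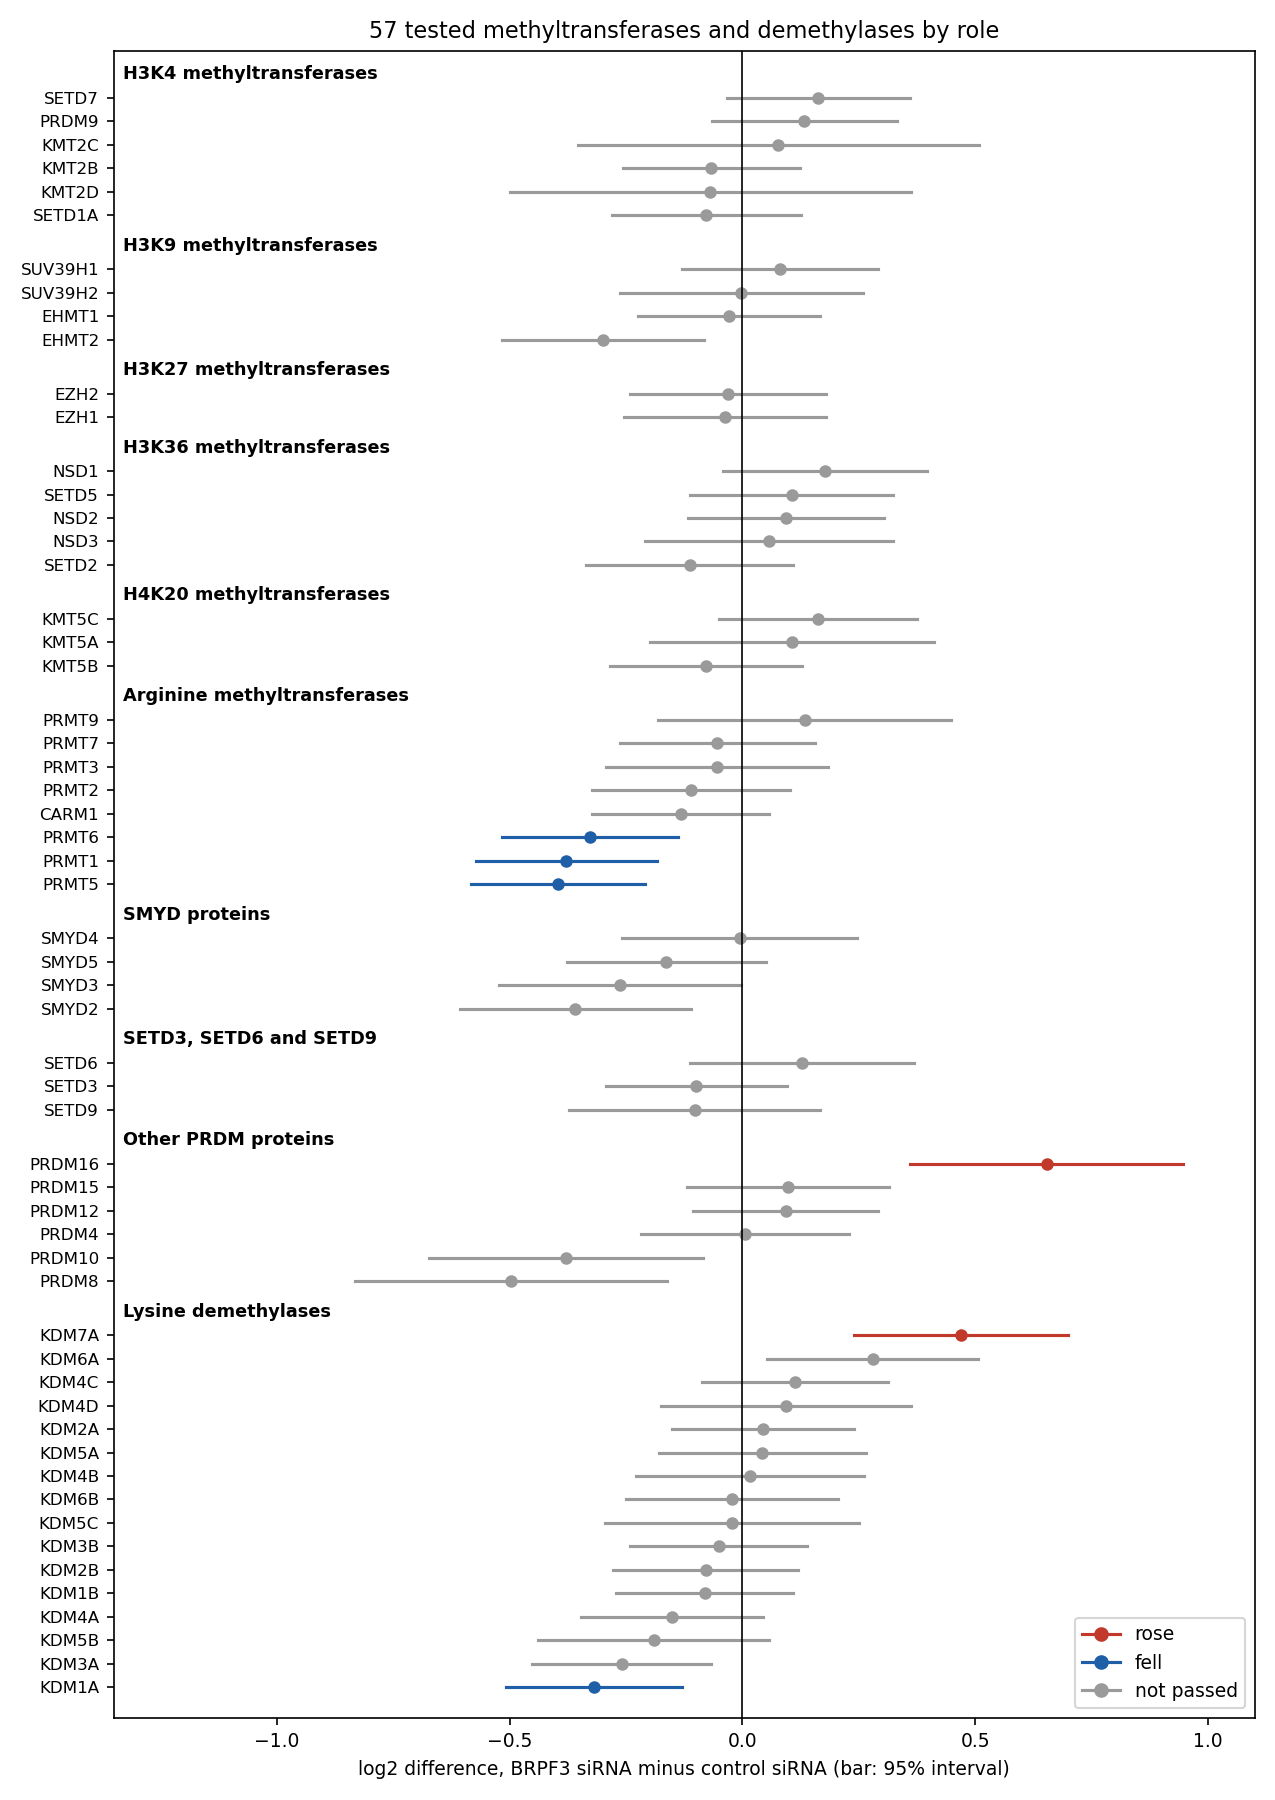
Log2 differences, BRPF3 siRNA minus control siRNA (horizontal axis), of the 57 tested members grouped by role, with bars for the unadjusted 95% interval from limma's fit of 2 arrays per group. The 3 fallen arginine methyltransferases and KDM1A stand to the left of 0 and KDM7A and PRDM16 to the right. The H3K4, H3K27, H3K36 and H4K20 enzymes and SETD3, SETD6 and SETD9 have intervals that span 0. Those of EHMT2, KDM3A, KDM6A, PRDM8, PRDM10, SMYD2 and SMYD3 exclude 0, although these members did not pass.

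The 51 tested members that did not pass had differences from -0.50 to 0.28, 21 above and 30 below 0, and 28 of them differed by less than 0.1 in size. For 48 of the 51 the 95% interval lay within a change of 1.5-fold in either direction. These intervals give the sizes of change that the arrays leave possible, and a missed threshold does not show that a level stayed the same. An unadjusted p under 0.05 was found for 13 members (22.8%), against 34.6% of all tested genes. The arrays of the groups did not overlap for 32 members (56.1%), against 63.2% of all tested genes. The median SE was 0.0878 for members, with a range from 0.0759 to 0.175, and 0.0914 for all tested genes. The median signal was 7.85 for members, against 6.93 for all tested genes. The part of precision in the share of calls was not tested.

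The 8 members below the brightness bound of 4.59 were KDM4E, KDM5D, PRDM6, PRDM7, PRDM13, PRDM14, PRMT8 and SMYD1, most of which are known from germ line, muscle, neural or embryonic cells. Signals this low lie close to background and were given no test. A second probe set existed for 3 members. That of SUV39H1 was at 5.58 and 5.62 after BRPF3 siRNA, against 5.57 and 5.60 after control siRNA, and that of NSD3 was at 5.37 and 5.32 after BRPF3 siRNA, against 5.25 and 5.63 after control siRNA. Both showed overlapping groups, as did both probe sets of PRDM6.

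**Figure D3:**
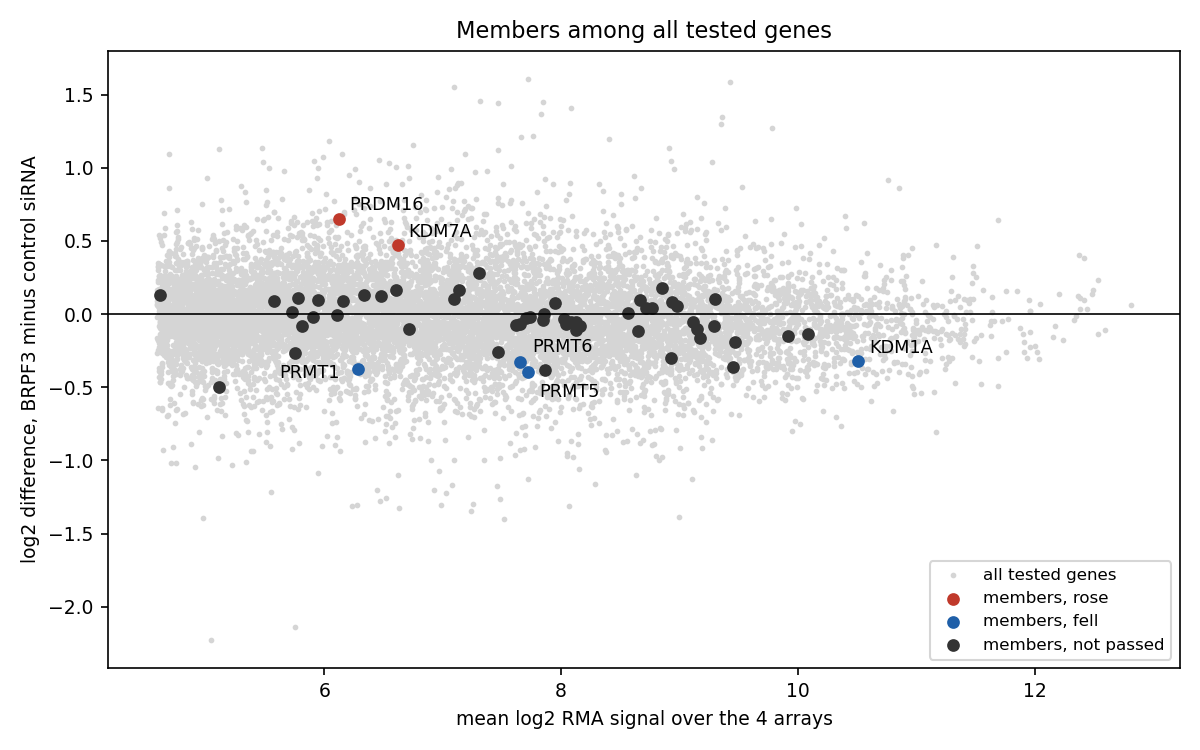
Log2 difference, BRPF3 siRNA minus control siRNA (vertical axis), against mean log2 RMA signal over the 4 arrays (horizontal axis) for 10696 tested genes, with the members as large points coloured by call. The members lie within the cloud of all genes, and the brightest changed member is KDM1A at 10.35 on average after BRPF3 siRNA and 10.67 after control siRNA.

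The size of some calls depended on how the arrays were scaled. After quantile normalization the members that changed were 2 risen and 2 fallen, in place of 2 and 4, and the share of falls among all changed genes was 48.4%, in place of 59.9%. The changed share was then 7.02% of members, against 13.9% of all tested genes. PRMT6 (-0.28, adjusted p = 0.0611, limma) and KDM1A (-0.22, adjusted p = 0.102, limma) lost their calls there, as they did with cyclic loess normalization, whereas PRMT1, PRMT5, KDM7A and PRDM16 passed in both.

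Without control replicate 1 or control replicate 2 the 6 members lost their calls, as did every other called gene. The loss was therefore not particular to the members. Such a fit leaves a single array in the control group. Leaving out a BRPF3 siRNA array also leaves a single array in its group, but there some genes kept their calls. The cause of the loss was not tested. The 6 members also missed the threshold without BRPF3 siRNA replicate 1. Without BRPF3 siRNA replicate 2, PRDM16 alone among them passed (0.81, adjusted p = 0.0316, limma). Without BRPF3 siRNA replicate 1 the difference of PRDM16 was 0.50, with an adjusted p just above the threshold, and PRDM8 passed (-0.69, adjusted p = 0.0348, limma). Testing all 14884 named genes without a brightness bound also ended all 6 calls, the lowest adjusted p being 0.0645 for PRDM16 (limma, 12 members at an unadjusted p under 0.05).

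The partners of these enzymes were taken from lists of other genes of the pathway. Of 3 tested partners of arginine methyltransferases 1 fell (33.3%, against 9.44% of all tested genes) and 2 did not pass. Over 3 genes this share was not tested. RIOK1, a kinase that brings substrates to PRMT5, was at 8.35 and 8.27 after BRPF3 siRNA, against 8.67 and 8.73 after control siRNA (-0.39 ± 0.08, adjusted p = 0.0338, limma). WDR77, the obligate partner of PRMT5 in the methylosome, was at 9.16 and 9.22 after BRPF3 siRNA, against 9.47 and 9.47 after control siRNA (-0.28 ± 0.08, adjusted p = 0.0625, limma), and COPRS differed by -0.07. In both RIOK1 and WDR77 the BRPF3 siRNA arrays lay below the controls, but WDR77 did not pass, and the arrays of COPRS overlapped between the groups. The groups did not overlap for 63.2% of all tested genes, so such a gap is common here. A joint change with PRMT5 was not tested. RIOK1 lost its call after quantile normalization (difference -0.32).

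Of 7 tested partners of EZH1 and EZH2 in Polycomb repressive complex 2, 0 rose and 1 fell. The changed share was 14.3%, near the 15.8% of all tested genes. MTF2, an accessory subunit that helps the complex bind CpG islands, was at 8.52 and 8.67 after BRPF3 siRNA, against 8.99 and 9.04 after control siRNA (-0.42 ± 0.09, 1.34-fold lower, adjusted p = 0.0344, limma). SUZ12, a core subunit, differed by 0.13 ± 0.09. Of 11 tested partners of the COMPASS H3K4 methyltransferases 0 passed limma's test, against 15.8% of all tested genes. An unadjusted p under 0.05 was found for 5 of them (45.5%), against 34.6% of all tested genes. Among 10 tested demethylase partners 0 rose and 1 fell, a changed share of 10%, against 15.8% of all tested genes. The fallen gene was RYBP, a subunit of Polycomb complexes that was listed with those holding KDM2B. RYBP was at 9.0005 and 8.9992 after BRPF3 siRNA, against 9.3535 and 9.2851 after control siRNA (-0.32 ± 0.08, adjusted p = 0.0473, limma), a call that was lost after quantile normalization. RCOR1, the CoREST scaffold that binds KDM1A, differed by 0.05 ± 0.10. Of 8 other SET and JmjC proteins 0 passed limma's test, and 4 (50%) had an unadjusted p under 0.05, against 34.6% of all tested genes.

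Among 17 tested readers of methyl marks and DNA methyltransferases 2 rose and 3 fell, a changed share of 29.4%, against 15.8% of all tested genes. Over so few genes the difference between these shares was not tested. The HP1 proteins, which bind methylated H3K9, did not move alike: CBX1 rose (9.72 and 9.75 after BRPF3 siRNA, against 9.38 and 9.43 after control siRNA) while CBX5 fell (7.88 and 8.16 after BRPF3 siRNA, against 8.83 and 8.85 after control siRNA). Their differences were 0.34 ± 0.08 (adjusted p = 0.0411) and -0.82 ± 0.11 (adjusted p = 0.0148, limma). CBX3 fell as well (-0.38 ± 0.08, adjusted p = 0.0355, limma), but its transcript shares sequence with processed pseudogenes and it lost its call after quantile normalization. L3MBTL3, a reader with MBT domains, was at 6.25 and 6.38 after BRPF3 siRNA, against 7.25 and 7.09 after control siRNA (-0.85 ± 0.10, 1.81-fold lower, adjusted p = 0.0107, limma). CBX5 and L3MBTL3 kept their calls when either BRPF3 siRNA array was left out and without the brightness bound. They lost them without either control array, where every called gene lost its call. CBX1, CBX3, DNMT3B, MTF2, MTR, RIOK1 and RYBP lost theirs without the brightness bound.

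DNMT3B, a de novo DNA methyltransferase, was at 7.72 and 7.77 after BRPF3 siRNA, against 7.33 and 6.97 after control siRNA (0.60 ± 0.13, 1.51-fold higher, adjusted p = 0.0380, limma). The control arrays were spread by more than the BRPF3 siRNA arrays but lay below them. The maintenance enzyme DNMT1 differed by 0.17 ± 0.08 and did not pass. Among 9 tested genes of methyl donor metabolism 1 rose and 0 fell, a changed share of 11.1%, against 15.8% of all tested genes. MTR, methionine synthase, which remakes the methionine from which S-adenosylmethionine is formed, was at 9.31 and 9.43 after BRPF3 siRNA, against 8.76 and 8.86 after control siRNA (0.56 ± 0.09, 1.47-fold higher, adjusted p = 0.0186, limma). AHCY, which clears the by-product S-adenosylhomocysteine, differed by -0.16 ± 0.08 and did not pass. MAT2A was not analysed here.

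**Figure D4:**
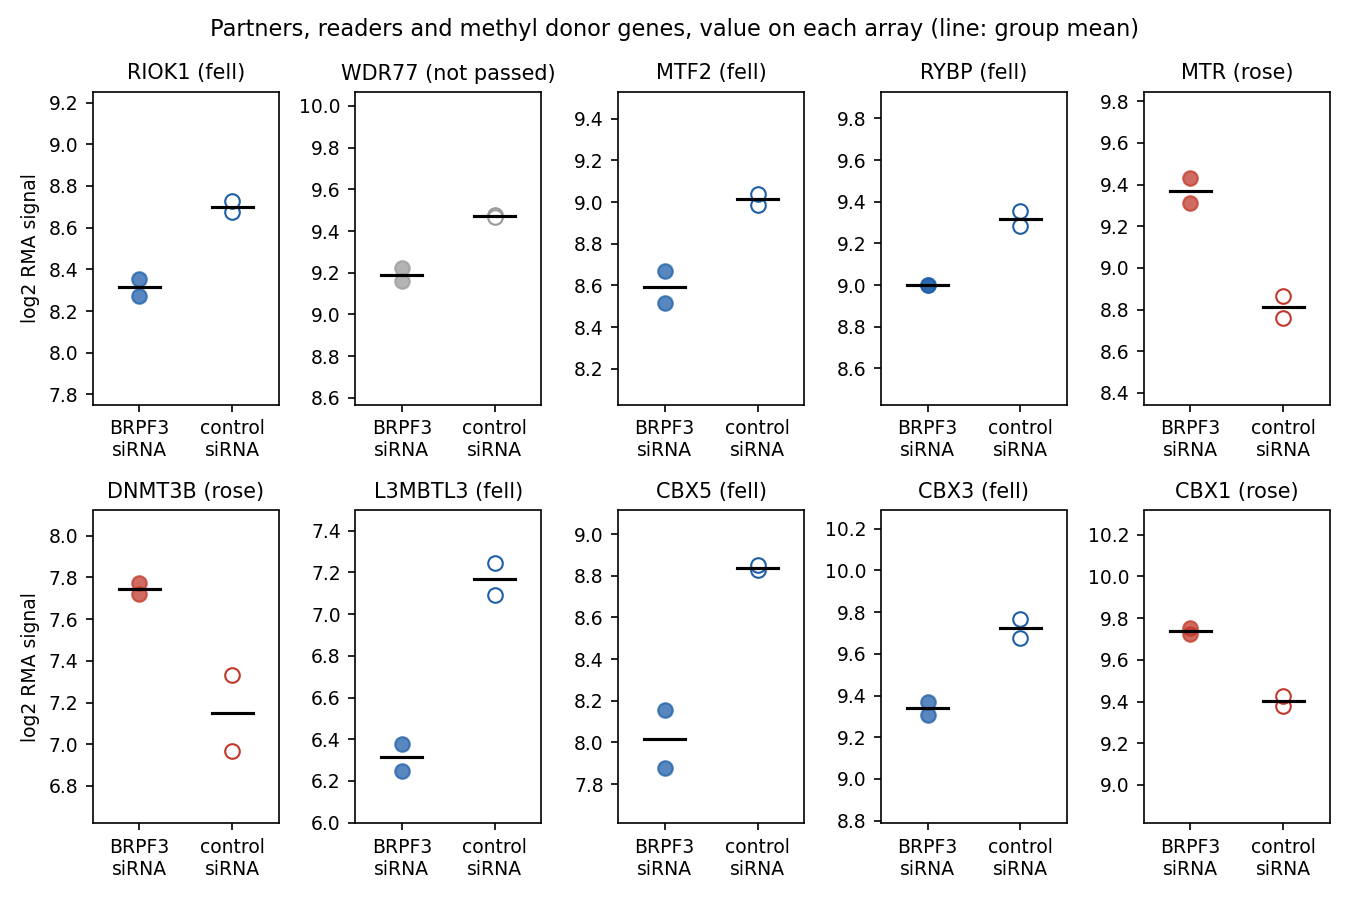
Log2 RMA signal (vertical axis, every panel spanning 1.5 log2 units) of partner, reader and methyl donor genes, with BRPF3 siRNA arrays as filled and control siRNA arrays as open points and lines at group means. CBX5 and L3MBTL3 show the widest gaps, both lower after BRPF3 siRNA, MTR and DNMT3B lie higher, and WDR77 lies lower without passing the test.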

How the data were processed

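The 4 arrays hold RNA of U2OS cells, 2 per siRNA group, grouped by their titles. The deposited values are log2 signals of 53617 probe sets, made by the authors with RMA per the submitters' processing notes. Its version and settings were not given in the sources used here. RMA removes shifts common to all transcripts. A platform annotation gave 1 symbol to 16098 probe sets, several to 0 and none to 37519, and all 16098 gene identifiers matched RefSeq (GRCh38.p14), used for names and promoters.

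The probe set with the highest mean stood for a gene, and genes averaging below 4.59, the median over probe sets, were not tested. limma 3.58.1 in R 4.3.3 (lmFit, eBayes, two-sided) compared the groups over 10696 genes, with 2 residual and 3.81 prior degrees of freedom. An exact permutation test of 2 against 2 arrays has 3 splits and cannot reach 0.05. The procedure was also run on simulated data, whose outcome is not given here and is not used as support. Alternatives were normalization, replicate block, intensity trend, no moderation, filters, averaged probe sets and each array left out.

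The members and lists were chosen with earlier results of these data known. Text names every changed member, the highest and lowest moderated t of each role, fixed names, and changed list genes. PRDM10, KMT2C, COPRS, WDR77, SUZ12, RCOR1, DNMT1, AHCY and other members outside the rule were named after their values were seen.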

Additional observations from a re-analysis of the deposited data

How the results depend on the processing

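The number of members changed, 6, was 11 with an intensity trend in eBayes (2 risen, 9 fallen), 0 without moderation and 0 without an intensity filter (7 and 12 at an unadjusted p under 0.05). With single arrays removed it lay between 0 and 1, and was 0 whichever control array was removed (9 members at an unadjusted p under 0.05 each time). The group's remaining array is then taken to have the variance of the other group. Over all genes the number, 1686, was 2645 with the trend, 1 without moderation, 409 without the filter and between 0 and 791 with single arrays removed. Other alternatives gave 4 to 9 members and 1482 to 2183 genes. The trend added EHMT2, KDM3A, PRDM8, PRDM10 and SMYD2, for a changed share of 19.3% of members, against 24.7% of all genes. The 75th percentile filter, 43 members tested, called 9: it added EHMT2, KDM3A, KDM6A, PRDM10 and SMYD2 and did not test PRMT1 and PRDM16. Its changed share was 20.9% of members, against 34.1% of all genes it tested. The cause of these shifts was not tested beyond the changed number of genes or arrays.

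With the replicate number as a block 5 members changed (8.77%), 2 risen and 3 fallen, and 1604 genes in all (15.0%). PRMT6 (adjusted p = 0.0541) and KDM1A (adjusted p = 0.0563) lost their calls and PRDM10 gained one. Of the changed list genes CBX1 (adjusted p = 0.0518) and RYBP (adjusted p = 0.0581) lost theirs too. The labels do not say that a number marks a shared batch, and deviations from group means of same-numbered arrays correlated at r = 0.141 across 10696 genes, which are not independent replicates.

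The 6 changed members kept their direction in every alternative run for them. For most alternatives this was fixed in advance. The groups of these members do not overlap, so leaving out an array cannot turn a sign. The block, the trend, no moderation, the filters and averaged probe sets left their differences as they were. Only the changes of normalization could have turned a sign. Of 38 named members 11, none of them changed, had the opposite sign in at least 1 alternative, with sizes up to 0.18. This contrast was built in, as the members called were those with a wide gap between the groups.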
